A study of Mus musculus with 48 samples.

Results

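MicroRNA genes made up 1170 of the 24466 genes in a mouse table of H3K27me3 ratios. They were taken as every gene symbol that begins with Mir and a digit or with Mirlet, a rule that uses the symbol alone. Of these, 1163 were named for a hairpin, the short folded RNA from which a microRNA is cut. The other 7 were longer host transcripts, whose symbols end in hg. In each cell type, genes at the column's most frequent ratio were set aside, and the remaining members were described.

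MicroRNAs are short RNAs that pair through their seed, a run of bases near the 5′ end, with messenger RNAs and reduce their translation and stability. H3K27me3 is the histone mark left by Polycomb repressive complex 2, and it covers silent developmental regulators such as the Hox genes in cells that do not use them. Several microRNA genes lie inside the Hox clusters, and others, such as those for miR-9 and miR-124, are transcribed mainly in the nervous system, which makes them classic candidates for Polycomb silencing outside it.

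The study profiled histone marks along liver and pancreas development by ChIP-seq, which sequences the DNA bound by an antibody and compares it with input DNA. Of its 48 libraries, 12 concern H3K27me3, with 2 ChIP and 2 input libraries for each of 3 cell types. The titles of the 2 beta-cell inputs read H3K72me3, and these libraries were taken as H3K27me3 inputs. Hepatocytes came from adult mice of 8 weeks. Mature beta cells, the insulin-producing cells of the pancreatic islet, were sorted at 8 weeks by FACS for a red fluorescent reporter, Ins-RFP per the labels. Definitive endoderm, the embryonic layer from which liver and pancreas form, was sorted with an antibody to the surface antigen ENDM1 at stage e8.25. Embryos came from superovulated B6C3F1 females bred to C3H, Pdx1-eGFP or Ins-RFP males. The shared protocol gives neither the cross behind each cell type nor the sex of the adults, and a reporter or surface antigen gate selects cells by that marker alone.

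Each gene had 1 pooled ratio of H3K27me3 to input per cell type, quantile-normalized by the authors. No value carries a replicate error, read depth is unknown, and no test between cell types was possible, so every difference given is a description of 3 profiles. Quantile normalization gave the columns a common distribution. Its median ratio was 0.711, with an upper quartile of 1.27 and extremes of 0.00339 and 1428. A ratio therefore shows where a gene stands within its own cell type, and total H3K27me3 cannot be compared. The labels were checked against marker genes, which commonly carry little of this silencing mark where they are expressed. The median ratio of 6 hepatocyte markers was 0.247 in hepatocytes, 1.16 in beta cells and 0.678 in endoderm. Of these, Alb alone was not lowest in hepatocytes, with 0.400 there, 0.920 in beta cells and 0.374 in endoderm. The median of 7 beta-cell markers was 4.74 in hepatocytes, 0.265 in beta cells and 5.34 in endoderm. Pdx1, with 7.18, 0.217 and 6.39 in that order of cell types, was among 5 that were lowest in beta cells. Slc2a2 was lowest in hepatocytes, with 0.240, 0.457 and 0.529, and Ins2 in endoderm, with 1.04, 0.593 and 0.381. The 6 endoderm markers did not separate the cell types in this way, with medians of 0.707 in hepatocytes, 0.618 in beta cells and 1.18 in endoderm. For 4 markers of other cell types the medians were 2.08, 0.881 and 1.56 in the same order.

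The mature sequences of several microRNAs described below are given from 5′ to 3′ as RNA, with the seed (bases 2 to 8) in capitals. They were taken from RefSeq on GRCm38.p6, where 1169 members matched by symbol and 1005 had a mature sequence. The first set shows the microRNAs of the Hox clusters, in which miR-10a and miR-10b share 1 seed and the miR-196 genes share another.
mmu-miR-10a-5p: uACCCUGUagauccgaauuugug
mmu-miR-10b-5p: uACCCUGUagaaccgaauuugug
mmu-miR-196a-5p: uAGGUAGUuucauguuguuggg
mmu-miR-196b-5p: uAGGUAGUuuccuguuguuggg
mmu-miR-615-3p: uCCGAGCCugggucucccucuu

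The second set shows microRNAs of the nervous system that several separate genes encode with the same letters, so that the ratios of genes for 1 microRNA can be compared. Mir9-1, Mir9-2 and Mir9-3 each encode miR-9-5p, and Mir128-1 with Mir128-2, Mir129-1 with Mir129-2, Mir138-1 with Mir138-2, Mir218-1 with Mir218-2 and Mir219a-1 with Mir219a-2 form pairs of this kind. For miR-137-3p the only gene is Mir137.
mmu-miR-9-5p: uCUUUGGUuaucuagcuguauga
mmu-miR-137-3p: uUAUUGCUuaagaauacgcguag
mmu-miR-128-3p: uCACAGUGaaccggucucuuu
mmu-miR-129-5p: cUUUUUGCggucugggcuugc
mmu-miR-138-5p: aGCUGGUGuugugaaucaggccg
mmu-miR-218-5p: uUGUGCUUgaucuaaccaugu
mmu-miR-219a-5p: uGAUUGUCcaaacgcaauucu

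The third set holds microRNAs known from islets and liver. Mir7-1 and Mir7-2 both encode miR-7a-5p, and Mir7b encodes a microRNA with the same seed.
mmu-miR-7a-5p: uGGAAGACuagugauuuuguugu
mmu-miR-7b-5p: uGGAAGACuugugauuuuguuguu
mmu-miR-802-5p: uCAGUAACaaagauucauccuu
mmu-miR-192-5p: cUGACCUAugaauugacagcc

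MicroRNA genes were often set aside, and protein-coding genes seldom. The most frequent ratio was 0.918 in hepatocytes, 0.932 in beta cells and 1.27 in endoderm, and it stood at 268, 369 and 299 microRNA genes in that order. This was 22.9%, 31.5% and 25.6% of the members, while only 25, 1 and 2 of 19695 protein-coding genes had these values. Small nucleolar and Cajal body RNA genes, which are also short, were affected alike, with 45, 46 and 35 of 114 set aside. Over the 3 columns 647 members were kept in each, 276 were set aside in 1, 81 in 2 and 166 in all 3. Each of the 7 host transcripts was kept in every column.

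Among the members that were kept, ratios gathered at both ends of the scale. The median ratio of 902 kept members was 0.652 in hepatocytes, with quartiles of 0.0180 and 1.87. In beta cells 801 kept members had a median of 0.0400 and quartiles of 0.0152 and 2.22. In endoderm 871 kept members had a median of 0.0710 and quartiles of 0.0158 and 0.423. Protein-coding genes lay close to the middle of each column, with medians of 0.662, 0.674 and 0.708 in the same order. At or below the 5th percentile of all genes (a ratio of 0.178) stood 42.1% of kept members in hepatocytes, 59.8% in beta cells and 68.4% in endoderm. At or above the 95th percentile (a ratio of 3.18) stood 171, 176 and 100 of them. MicroRNA genes thereby filled 120, 122 and 49 of the 245 genes in the top 1% of hepatocytes, beta cells and endoderm.

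Many of these ratios were not unique. A kept member had exactly the ratio of another gene of its column in 42.2% of cases in hepatocytes, 48.4% in beta cells and 67.2% in endoderm, against 0.895%, 0.894% and 1.84% of protein-coding genes. The hairpins for which RefSeq gives a sequence, 956 in number, had a median length of 79 bases and ran from 39 to 139 bases. The sources used here give neither the region measured for a hairpin nor the number of reads behind it, and their part in these extreme and repeated ratios was not tested. There were 56 members in 22 groups that had the same ratios as another member in every column, among them copies such as Mir466b-4 and Mir466b-6, and cannot be told apart.

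**Figure D1:**
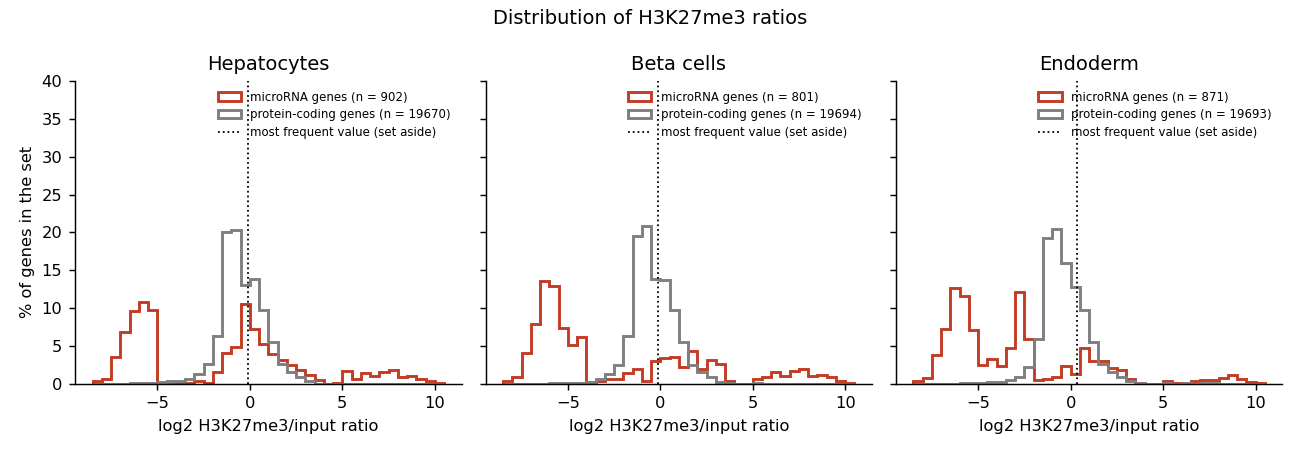
Distribution of log2 H3K27me3/input ratios (horizontal axis) for kept microRNA genes and for protein-coding genes, as a percentage of each set (vertical axis), in hepatocytes, beta cells and endoderm; the dotted line marks the ratio whose genes were set aside. Protein-coding genes form 1 central peak, while microRNA genes form a low group, with 42.1%, 59.8% and 68.4% at or below the 5th percentile of all genes, and a long upper tail.

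Across all members, more microRNA genes than genes in general were counted as different, in both directions and in each comparison. A gene was counted once its log2 difference reached 1. That is a 2-fold change in ratio + 0.0711, a scale that understates changes at low ratios. Hepatocytes against endoderm gave 369 members higher, 46.5% of 794 compared, where the share among all genes was 12.5%. Lower members were 195, or 24.6%, where it was 13.3%. The median difference of the members was 0.24, while the median size of a difference, in either direction, was 2.41, where all genes had 0.50.

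Beta cells against endoderm gave 222 members higher, 31.9% of 695, against 13.6% of all genes. It gave 195 lower, 28.1%, against 15.0% of all genes, with a median difference of 0.03 and a median size of 1.54, where all genes had 0.56. Hepatocytes against beta cells gave 261 members higher, 35.9% of 728, against 12.8% of all genes. It gave 191 lower, 26.2%, against 12.3% of all genes, with a median difference of 0.02 and a median size of 2.49, where all genes had 0.49. The excess of counted members thus stood on both sides of 0, and it accompanied the wide spread of ratios within each column. The first of these comparisons and the one of beta cells share the endoderm column. Of all genes counted, 48.5% were higher in hepatocytes against endoderm and 47.6% in beta cells against endoderm. With columns divided by their most frequent value these shares were 73.6% and 71.1%, and among members they were then 67.3% and 55.9%.

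**Figure D2:**
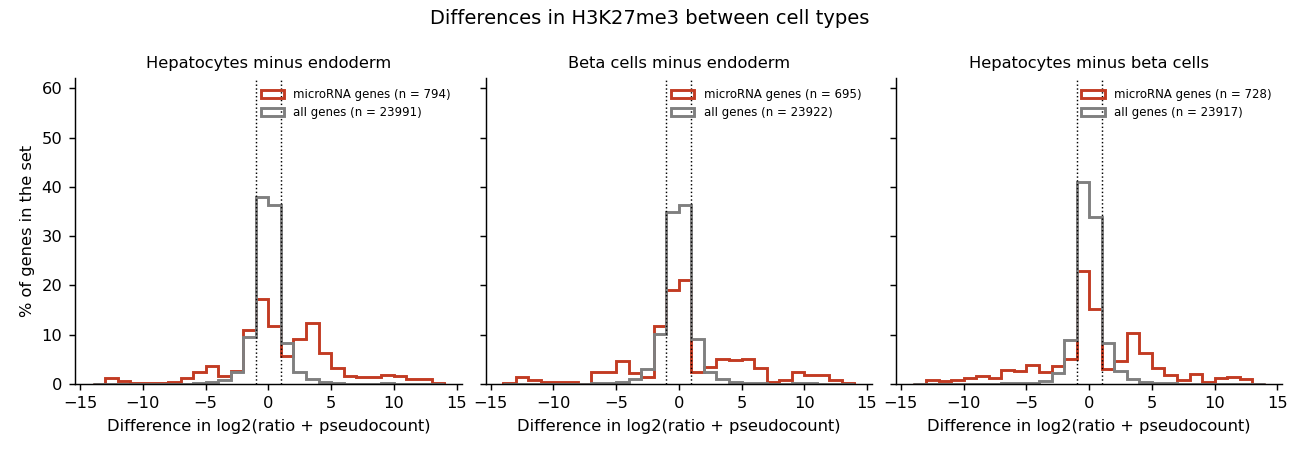
Differences in log2(ratio + 0.0711) between cell types (horizontal axis) for microRNA genes and for all genes, as a percentage of each set (vertical axis); dotted lines mark differences of -1 and 1. All genes gather between the lines, whereas 46.5% of microRNA genes lie above the upper line and 24.6% below the lower one in hepatocytes against endoderm.

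The Hox clusters hold 6 microRNA genes, and 4 of them stood in the top 25% of genes in every cell type. In single columns, 33.1% of all kept microRNA genes stood there in hepatocytes, 31.5% in beta cells and 20.6% in endoderm. The share of all genes that stood there in every column was not counted. The 3 members of the miR-196 family, which in mouse directs cleavage of Hoxb8 messenger RNA, lie between Hox genes of 3 clusters. Mir196a-2, next to Hoxc10, had ratios of 9.82 in hepatocytes, 10.3 in beta cells and 4.75 in endoderm, and Hoxc10 itself had 6.88, 4.62 and 6.77. The hairpin and the gene were thus both in the top 5% of each column. Mir196b, next to Hoxa10, reached 1428 in hepatocytes, the highest ratio of the column, 3.10 in beta cells and 366 in endoderm. Hoxa10 was nearly level, at 8.26, 7.84 and 9.02. Mir196a-1, next to Hoxb9, had 1.30 in hepatocytes, 66.5 in beta cells and 3.88 in endoderm, against 7.15, 4.14 and 7.45 at Hoxb9. The order of the cell types therefore differed among the genes of this family, and at none of the 3 did it follow the neighbouring Hox gene.

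Mir615 lies within Hoxc5 in the RefSeq annotation and had ratios of 15.4 in hepatocytes, 191 in beta cells and 1428, the highest of the column, in endoderm. Hoxc5 varied far less, with 7.09, 4.13 and 5.38. The miR-10 genes, whose products are expressed along the body axis with the Hox genes around them, had no high ratio. Mir10a, within Hoxb3, was set aside in hepatocytes and had ratios of 0.0567 in beta cells and 0.0635 in endoderm, at percentiles 2.55 and 2.70. Hoxb3 around it had 7.25, 5.69 and 9.24 in hepatocytes, beta cells and endoderm. Mir10b, within Hoxd4, was set aside in every column, and Hoxd4 had 4.84, 6.59 and 7.02. The Hox genes beside all 6 members were thus in the top 5% of every cell type, while only the miR-196 genes and Mir615 had high ratios of their own.

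On the same log2 scale, the differences at the Hox cluster members ran in both directions. Hepatocytes minus endoderm was 1.96 at Mir196b and 1.04 at Mir196a-2, and it was -1.52 at Mir196a-1 and -6.53 at Mir615. Beta cells minus endoderm gave 4.07 at Mir196a-1, 1.11 at Mir196a-2, -2.90 at Mir615 and -6.85 at Mir196b. Hepatocytes minus beta cells gave 8.82 at Mir196b, -0.07 at Mir196a-2, -3.62 at Mir615 and -5.60 at Mir196a-1. The median over the members compared was -0.24, -0.07 and -1.85 in these comparisons, with 4, 5 and 4 members. With set-aside members kept, the first and the third of these medians were 0.30 and -0.05. By rank percentiles, with 25 points as the threshold, none of these differences was counted, and most of these members stood near the top of both columns. The difference between hepatocytes and endoderm was then 0.08 points at Mir196b and -0.44 at Mir615, and the widest gap, -23.29 points, was at Mir196a-1 in hepatocytes against beta cells. At Mir196a-2 the hepatocyte minus endoderm difference was 0.95 with a pseudocount 10 times larger. The ratios of the kept hairpins spanned 0.0567 to 1428, while those of the Hox genes stayed between 4.13 and 9.24.

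**Figure D3:**
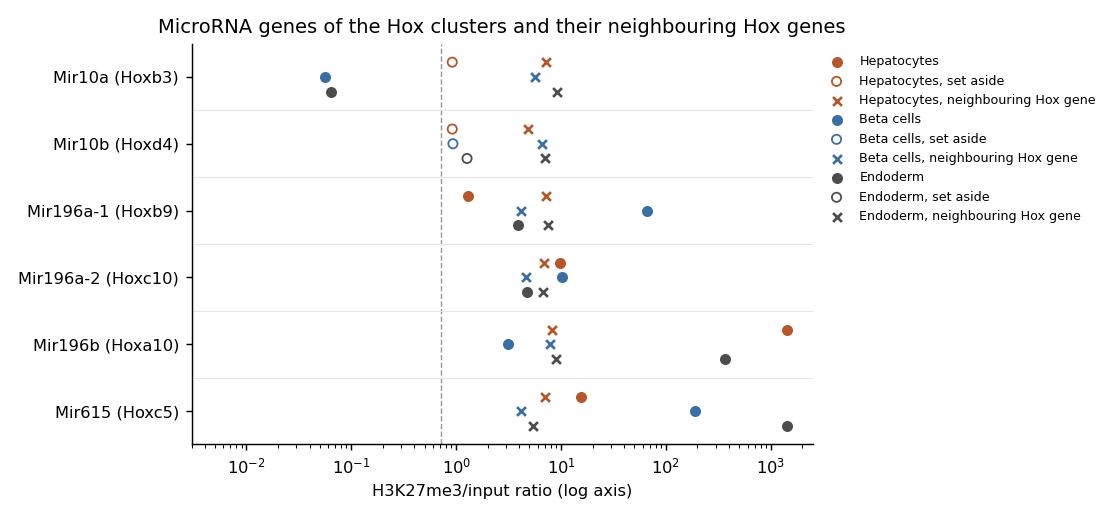
H3K27me3/input ratio (horizontal log axis) of the 6 microRNA genes of the Hox clusters (circles, open where set aside) and of the Hox gene beside or around each (crosses), in hepatocytes, beta cells and endoderm; the dashed line marks the median ratio of 0.711. The crosses stay between 4.13 and 9.24, while Mir196b and Mir615 reach 1428 and Mir10a falls to 0.0567 in beta cells.

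MicroRNA genes of the nervous system were followed through a list of 26, of which 24 were kept in hepatocytes, 24 in beta cells and 22 in endoderm. The median ratio of those kept was 2.30 in hepatocytes, 8.88 in beta cells and 1.02 in endoderm. For all kept microRNA genes it was 0.652, 0.0400 and 0.0710. At or above the 95th percentile of all genes stood 10 of 24, 15 of 24 and 10 of 22 kept neural genes. Among all kept microRNA genes it was 171 of 902, 176 of 801 and 100 of 871 in the same order. At or below the 5th percentile stood 3, 7 and 8 neural genes, against 42.1%, 59.8% and 68.4% of all kept microRNA genes.

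Genes for miR-9, miR-124 and miR-137 held high ranks in most columns. Mir137, whose product acts in neuronal maturation, had ratios of 39.3 in hepatocytes, 266 in beta cells and 727 in endoderm. Mir9-1 had 11.5, 3.57 and 8.03, and Mir9-3 had 6.02, 9.37 and 484, in the same order. The miR-9 family controls the switch of neural progenitors from division to differentiation. Mir9-2, which encodes the same mature miR-9 as the other two, had 96.4 in beta cells and was set aside in hepatocytes and endoderm. The miR-124 genes encode the most abundant neuronal microRNA, which represses transcripts of other cell types. Mir124a-3 had 11.8 in hepatocytes, 72.6 in beta cells and 251 in endoderm. Mir124a-1 had 6.08, 719 and 1.50, and Mir124a-2 had 1.67 in hepatocytes and 73.6 in endoderm and was set aside in beta cells. Wherever they were kept, the miR-9, miR-124 and miR-137 genes were in the top 25% of all genes. The protein-coding genes nearest to Mir9-3, Mir124a-3 and Mir137, namely Polg, Ythdf1 and Dpyd, had ratios between 0.396 and 0.702 in the 3 columns, below the median of all genes, as did Kif13b next to Mir124a-1 with 0.417 in hepatocytes, 0.623 in beta cells and 0.418 in endoderm. Others were above it, with 1.01, 1.15 and 1.61 at Rhbg next to Mir9-1, 1.27, 1.05 and 0.860 at Mef2c next to Mir9-2, and 1.08, 3.39 and 3.13 at Cypt12 next to Mir124a-2.

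Other pairs of genes for 1 neural microRNA differed widely. Mir128-2, within Arpp21, had 3.30 in hepatocytes, 949 in beta cells and 0.535 in endoderm, whereas Mir128-1, within R3hdm1, was set aside in every column. Mir129-1 had 1.12, 603 and 0.00639, whereas Mir129-2 had 3.87, 0.00807 and 40.5. The genes for miR-129-5p thus stood at opposite ends of both the beta-cell and the endoderm column. Mir218-1, within Slit2, had 2.60 in hepatocytes, 0.0567 in beta cells and 0.0152 in endoderm. Mir218-2, within Slit3, had 2.62, 73.1 and 0.0635. The miR-218 genes, whose product marks motor neurons, were therefore alike in hepatocytes and endoderm and apart in beta cells. Mir138-1 had 0.496, 0.723 and 0.0195, and Mir138-2 had 0.796, 105 and 0.0131.

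Mir219a-1 and Mir219a-2, for a microRNA that promotes oligodendrocyte differentiation, were high in endoderm, at 4.88 and 46.8. Mir219a-1 had 0.00883 in hepatocytes and 0.00551 in beta cells, and Mir219a-2 had 1.13 and 0.0229. Mir132 and Mir212, neighbouring genes that neuronal activity induces together, parted in beta cells. Mir132 had 0.824 in hepatocytes, 0.00972 in beta cells and 0.0195 in endoderm, while Mir212 had 1.19, 114 and 0.00798. The miR-135 genes each had a different order. Mir135a-1 had 0.0154, 8.40 and 9.37, Mir135a-2 had 57.1, 8.35 and 0.178, and Mir135b had 1.12, 1428 and 0.424 in hepatocytes, beta cells and endoderm. Of the remaining members, Mir488 had 290 in hepatocytes and 95 in beta cells and was set aside in endoderm, and Mir153 had 2.01 and 1.03 and was likewise set aside there. Mir149 was high in hepatocytes alone, with 43.6 in hepatocytes, 0.00719 in beta cells and 0.0195 in endoderm. Mir383, within Sgcz, was high in endoderm alone, with 0.0198 in hepatocytes, 0.0133 in beta cells and 400 in endoderm.

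**Figure D4:**
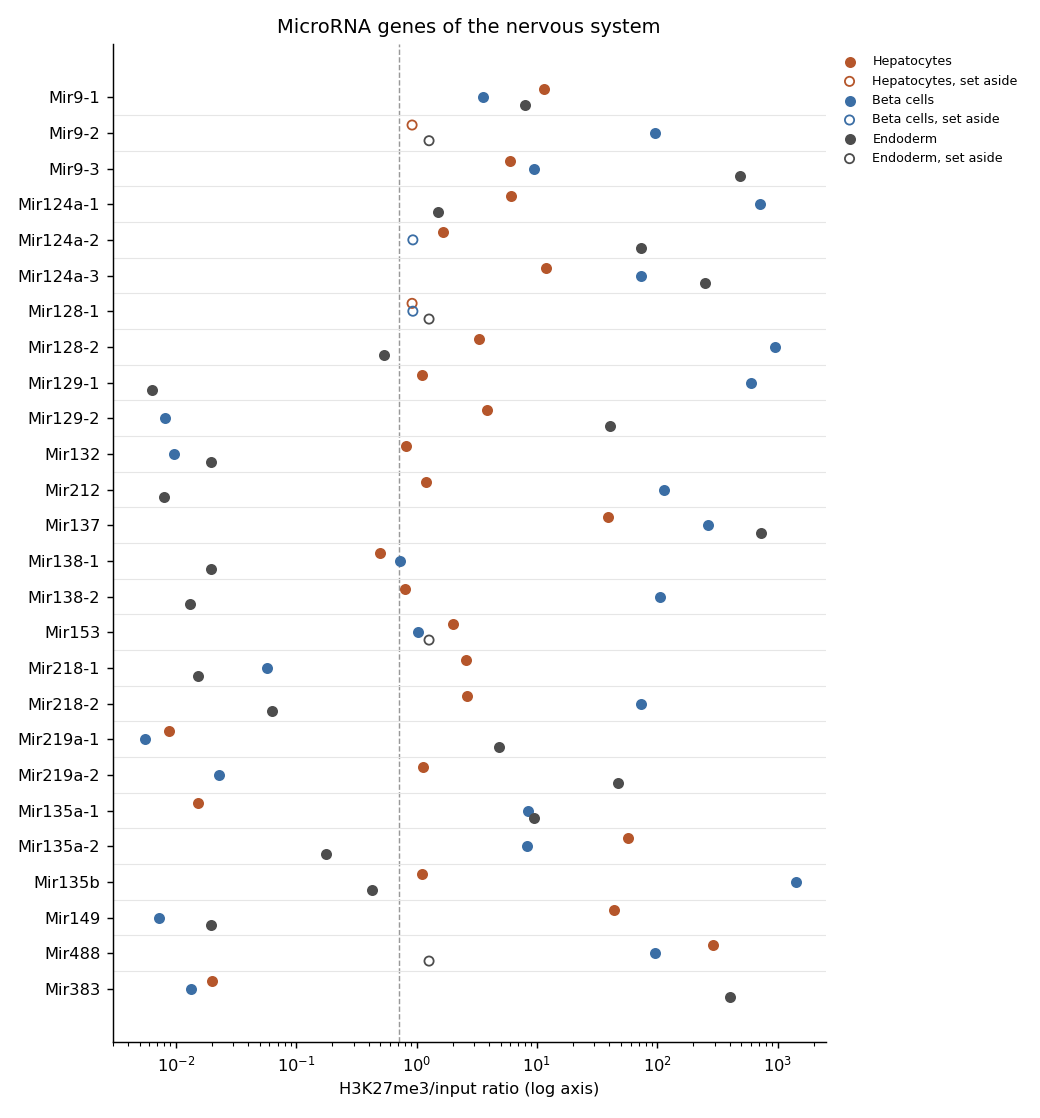
H3K27me3/input ratio (horizontal log axis) of the 26 microRNA genes of the nervous system in hepatocytes, beta cells and endoderm, with open circles where a gene was set aside; the dashed line marks the median ratio of 0.711. Mir9-1, Mir9-3, Mir124a-3 and Mir137 lie above 3.18, the 95th percentile, in all 3 cell types, whereas pairs such as Mir129-1 and Mir129-2 change places.

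As a list, the neural genes leaned in no common direction across the comparisons. Hepatocytes against endoderm gave 12 higher and 9 lower of 22 compared, with a median log2 difference of 1.62 and a mean of -0.20, which differ in sign. Beta cells against endoderm gave 9 higher and 8 lower of 21, with a median of -0.16 and a mean of 1.70, again opposite in sign. Hepatocytes against beta cells gave 8 higher and 10 lower of 23, with a median of -0.49 and a mean of -1.40. Among all genes the shares were between 12.3% and 15.0% in each direction. Among all microRNA genes compared, 46.5% were higher and 24.6% lower in the first comparison. The shares were 31.9% and 28.1% in the second and 35.9% and 26.2% in the third. An excess over all genes was thus not particular to the neural list. With a pseudocount 10 times larger, the first median was 0.71, and with genes at the most frequent value kept it was 0.95, so it did not stay past 1.

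In their ratios, the host transcripts gave a calmer picture than the hairpins cut from them, and were named after their values were seen. Mir124a-1hg, which carries miR-124, had ratios of 5.16 in hepatocytes, 3.78 in beta cells and 6.25 in endoderm. Mir9-3hg had 3.40, 5.45 and 6.0. Both were above the 95th percentile in every column, and no difference between cell types at either reached a log2 size of 1. At the hairpins Mir124a-1 and Mir9-3 themselves, the hepatocyte minus endoderm difference was 1.97 and -6.31. Mir1a-1hg, which carries a microRNA of heart and skeletal muscle, had 3.06, 3.02 and 2.58 in hepatocytes, beta cells and endoderm, just under the 95th percentile.

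The other 4 host transcripts were at low or middle ratios. Mir22hg had 0.221 in hepatocytes, 0.303 in beta cells and 0.917 in endoderm, with log2 differences to endoderm of -1.76 in hepatocytes and -1.40 in beta cells. Mir17hg, the host of the miR-17 cluster, which is active in dividing cells, had 0.545, 1.04 and 1.20, with a difference of -1.05 in hepatocytes against endoderm. These were the only host transcripts past a log2 difference of 1. With a pseudocount 10 times larger none of the 3 differences was, at -0.80 and -0.68 for Mir22hg and -0.61 for Mir17hg, and with columns divided by their most frequent value Mir17hg had -0.63. Mir99ahg had 0.458, 0.909 and 0.894, and Mir155hg, the host of an immune microRNA, had 0.476, 0.260 and 0.327. All host ratios lay between 0.221 and 6.25.

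**Figure D5:**
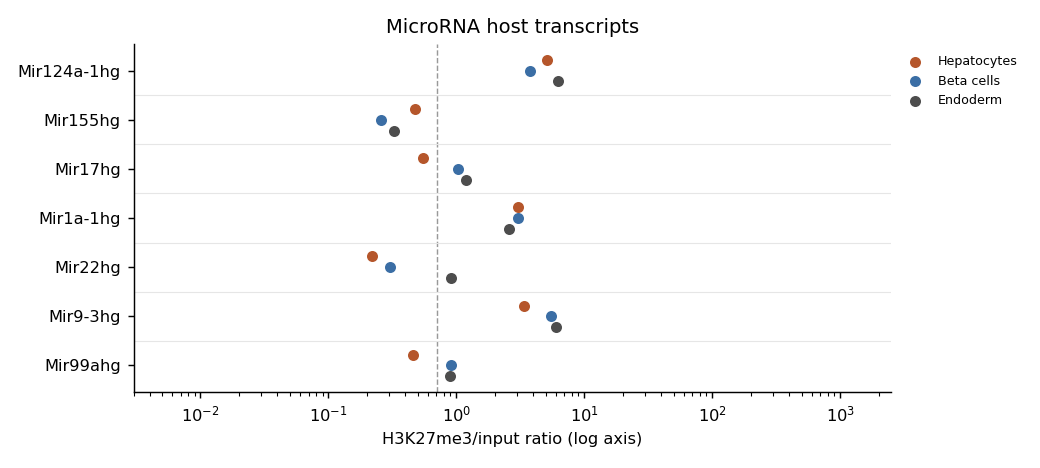
H3K27me3/input ratio (horizontal log axis, drawn over the same span as the hairpins) of the 7 microRNA host transcripts in hepatocytes, beta cells and endoderm; the dashed line marks the median ratio of 0.711. Mir124a-1hg, Mir9-3hg and Mir1a-1hg lie above the line in every cell type, and Mir22hg has its highest ratio, 0.917, in endoderm.

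Among 12 microRNA genes of islet and pancreas, Mir375 encodes an abundant islet microRNA that restrains insulin secretion. It had ratios of 0.954 in hepatocytes, 0.0173 in beta cells and 1.50 in endoderm. Its neighbour Cryba2 had 6.84, 0.437 and 5.40, so both were lowest in beta cells. On the log2 scale, beta cells minus endoderm was -4.15 at Mir375, and hepatocytes minus endoderm was -0.61. Mir7-2, for the islet and brain microRNA miR-7a, had 4.64 in hepatocytes, 0.0229 in beta cells and 0.00879 in endoderm. Mir7b was level, with 1.30, 1.27 and 1.40, and Mir7-1, within Hnrnpk, was set aside in every column. Mir184 had 2.61 in hepatocytes and 0.00940 in endoderm and was set aside in beta cells.

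Of the genes for miR-216 and miR-217, microRNAs of the exocrine pancreas that lie together, Mir216a had 217 in hepatocytes and 187 in beta cells and was set aside in endoderm. Mir216b had 218, 0.971 and 92.3 in hepatocytes, beta cells and endoderm, and Mir217 had 0.0166, 2.63 and 0.0599. These neighbours did not share 1 order of the cell types. Mir211, within Trpm1, had 0.0266 and 0.0187 in hepatocytes and beta cells and 225 in endoderm. Its relative Mir204, within Trpm3, was set aside in both adult cell types and had 0.112 in endoderm. Mir148a had 0.0121, 0.0233 and 0.0517, and Mir30d had 0.0223, 0.0414 and 0.422. The list as a whole gave 1 higher and 4 lower of 8 in beta cells against endoderm, with a median log2 difference of -1.26. There 13.6% of all genes were higher and 15.0% lower, and 31.9% and 28.1% of all microRNA genes compared. Hepatocytes against endoderm gave 3 higher and 2 lower of 9, with a median of -0.56. The shares of all genes were 12.5% and 13.3% there, and those of microRNA genes 46.5% and 24.6%. In beta cells 5 of 9 kept list members were at or below the 5th percentile of all genes, against 59.8% of all kept microRNA genes.

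Among 12 microRNA genes of the liver, Mir122, which encodes the dominant hepatocyte microRNA, was low in every cell type. It had ratios of 0.0189 in hepatocytes, 0.0125 in beta cells and 0.0121 in endoderm, all at or below percentile 1.32, and its log2 differences stayed within 0.11. Mir33, within Srebf2, whose product lowers cholesterol export, had 0.00725, 0.0302 and 0.0206. Low ratios at these genes thus did not set hepatocytes apart from the other cell types. Mir802 had 0.0256 in hepatocytes, 194 in beta cells and 0.175 in endoderm, the only liver gene among the lowest 10 differences of hepatocytes against beta cells, at -10.97. Mir192 had 0.0152 in hepatocytes and 0.0379 in endoderm and was set aside in beta cells. Mir194-2 had 0.953, 0.175 and 0.00491, and Mir194-1 was set aside in both adult cell types and had 0.0123 in endoderm.

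Mir193b and Mir365-1, which lie together, were highest in hepatocytes. Mir193b had 147 there and 1.50 in endoderm and was set aside in beta cells, and Mir365-1 had 10.3 in hepatocytes, 0.280 in beta cells and 0.954 in endoderm. Their paralogs Mir193a and Mir365-2 had their lowest ratios in hepatocytes. Mir365-2 was near the bottom of the endoderm column as well, and its hepatocyte minus endoderm difference was only -0.19. Mir193a had 0.569, 2.16 and 7.34, and Mir365-2 had 0.00523, 4.93 and 0.0158 in hepatocytes, beta cells and endoderm. Mir378a, within Ppargc1b, had 0.0121, 0.00972 and 1.91, and Mir101b had 0.0256 in hepatocytes and was set aside in the other two. The list gave 3 higher and 3 lower of 10 in hepatocytes against endoderm and 2 higher and 3 lower of 8 in hepatocytes against beta cells, with median log2 differences of -0.21 and -0.16. Among all genes the shares were 12.5% and 13.3% in the first comparison and 12.8% and 12.3% in the second. Among all microRNA genes compared they were 46.5% and 24.6% in the first and 35.9% and 26.2% in the second.

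The members at the ends of the 3 comparisons had a ratio near the top of 1 column and near the bottom of the other. In hepatocytes against endoderm, Mir7216 was highest, with 949 in hepatocytes and 0.00800 in endoderm, followed by Mir1895 with 816 and 0.00689 and Mir106a with 727 and 0.0191. Mir759, Mir6903, Mir7656, Mir205, Mir6944, Mir291a and Mir7078 completed the 10, with ratios from 341 to 523 in hepatocytes. Mir205 is a microRNA of stratified epithelia and Mir291a belongs to a cluster of pluripotent cells, and neither product is typical of hepatocytes. Lowest was Mir6420, with 0.0263 in hepatocytes and 706 in endoderm, a log2 difference of -12.82. Mir151, Mir8108, Mir5119, Mir7652, Mir7240, Mir142, Mir6963, Mir383 and Mir5615-1 followed. Mir142, for a microRNA of blood cells, had 0.0118 in hepatocytes and 413 in endoderm.

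In beta cells against endoderm, Mir106a was highest, with 816 in beta cells and 0.0191 in endoderm, and Mir129-1 next, followed by Mir697, Mir3099, Mir7027, Mir465, Mir301b, Mir6391, Mir1903 and Mir7007. Lowest was Mir681, with 0.0247 in beta cells and 816 in endoderm. Mir142 came next with 0.00489 and 413, then Mir5119, Mir7240, Mir6996, Mir103-2, Mir383, Mir6959, Mir3106 and Mir7026. In hepatocytes against beta cells, Mir1905 was highest, with 538 in hepatocytes and 0.00650 in beta cells, followed by Mir759, Mir291a, Mir450-1, Mir20b, Mir7656, Mir139, Mir3471-2, Mir3089 and Mir1963. Lowest was Mir1903, with 0.0216 in hepatocytes and 727 in beta cells, followed by Mir697, Mir3099, Mir7681, Mir7027, Mir302d, Mir297b, Mir6391, Mir6420 and Mir802. Apart from those described above, no role is given for these members.

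Members with a high ratio in all cell types were few, but the same overlap was not counted over all genes. Whether members share high ratios less often than other genes therefore cannot be said. Of the 647 members kept in every column, 254 were in the top 5% of 1 or more columns, 186 of them in 1 column, 56 in 2 and 12 in all 3. In 195 of the 647, a ratio at or below the 5th percentile in 1 cell type met a ratio at or above the 95th in another. Another 132 were at or below the 5th percentile in all 3. The 12 members at the top throughout included Mir196a-2 and Mir615 from the Hox clusters, Mir9-1, Mir9-3, Mir124a-3 and Mir137 from the neural list, and the hosts Mir124a-1hg and Mir9-3hg. The other 4, named after their values were seen, were Mir3078, Mir6546, Mir6974 and Mir8109. Mir3078, which lies in the neighbourhood of Kif13b as Mir124a-1 does, had 4.85 in hepatocytes, 3.87 in beta cells and 3.23 in endoderm.

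Ratios of neighbouring hairpins were compared because clustered microRNAs are usually cut from 1 transcript. Among 299 pairs of neighbouring hairpin genes, both were kept for 209 in hepatocytes, 171 in beta cells and 194 in endoderm. The median size of the log2 difference within a pair was 1.77, 2.05 and 1.21, and 59.3%, 63.7% and 55.7% of pairs differed at least 2-fold. For neighbouring protein-coding genes the median size was 0.62, 0.74 and 0.71, and 32.8%, 38.0% and 36.5% of pairs differed that far. Adjacent hairpins were thus less alike than adjacent protein-coding genes in each column. Hairpin ratios also spread more widely in general. In hepatocytes the quartiles of kept microRNA genes were 0.0180 and 1.87, and those of protein-coding genes 0.457 and 1.26. Pairs were consecutive genes at any distance, and hairpins that are not neighbours were not compared, so these values do not single out adjacent hairpins.

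The hairpin ratio followed the nearest protein-coding gene, taken by position in RefSeq, only in part. No limit of distance was set, so a gene named as next to a hairpin may lie far from it. Of 51 kept hairpins in hepatocytes whose neighbour was in the top 5% of genes, 31 (60.8%) were in the top 25%, against 31.4% of the others. In beta cells it was 11 of 20 (55.0%) against 30.8%, and in endoderm 13 of 44 (29.5%) against 19.9%. Spearman's rho between hairpin and neighbour was 0.43 over 894 genes in hepatocytes, 0.22 over 793 in beta cells and 0.14 over 863 in endoderm. It was 0.47, 0.29 and 0.23 where the hairpin overlaps its neighbour, over 554, 496 and 546 genes, and 0.34, 0.11 and -0.01 where it lies beside it, over 340, 297 and 317. These values describe genes of 1 profile, which share libraries and often a neighbour, and they are not independent replicates.

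In 19 hairpins the neighbour was in the top 5% of every cell type, and 6 of these were those of the Hox clusters. The rest were named after their values were seen. Mir1897 and Mir6378 lie next to Sox2, a regulator of neural and pluripotent cells with ratios of 8.16 in hepatocytes, 8.32 in beta cells and 3.62 in endoderm. Mir1897 had 706, 2.84 and 0.141 in the same order, and Mir6378 had 0.844, 0.0243 and 0.0117. Mir1247, next to Dio3 at 5.60, 10.2 and 10.4, had 1.30, 0.272 and 341. Mir29a lies next to Klf14, which had 7.45, 3.73 and 11.5, and yet had 0.0151, 0.00798 and 0.0121, at the bottom of each column. Where the nearest gene was strongly marked, hairpin ratios therefore ran from 0.00798 to 1428.

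MicroRNA genes of the X chromosome leaned to higher ratios in hepatocytes than in endoderm. Of 90 such genes, 46 were compared between hepatocytes and endoderm, and the rest were set aside in 1 column or both. Of the 46, 38 were higher and 4 lower, with a median log2 difference of 3.62. The other hairpin genes gave 331 higher and 189 lower of 741, with a median of 0.17. The 6 hairpins from Mir363 to Mir106a form an X-linked relative of the miR-17 cluster, with median ratios of 113 in hepatocytes, 271 in beta cells and 0.0754 in endoderm. Protein-coding genes of the X chromosome had median ratios of 2.09 in hepatocytes, 0.715 in beta cells and 1.78 in endoderm. Among 799 of these, hepatocytes against endoderm gave 106 higher and 8 lower. For beta cells against endoderm, X-linked microRNA genes gave 12 higher and 9 lower of 26, while 15 X-linked protein-coding genes were higher and 451 lower. For hepatocytes against beta cells, X-linked microRNA genes gave 18 higher and 8 lower of 31, and other hairpin genes 243 and 183 of 690. X-linked protein-coding genes then gave 551 higher and 2 lower of 799. The sources used here do not give the sex of the animals behind each column, and its part in these values was not tested. With X-linked microRNA genes left out, an alternative added after the data had been seen, hepatocytes against endoderm gave 331 members higher and 191 lower, host transcripts included.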

How the data were processed

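H3K27me3 ChIP-seq was analysed in hepatocytes, beta cells and endoderm. The deposited values are ratios of ChIP to input, quantile-normalized by the authors, per the title and column names of the table, and their linear scale was read from the values. The submitters' processing notes name Bowtie2 2.1.0, bedtools and build mm9. The sources used here give neither the measured region, nor any added constant, nor the way libraries were combined. H3K9me3 libraries were not analysed here.

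Members were all symbols beginning with Mir and a digit or Mirlet. Differences were taken in log2(ratio + 0.0711), the pseudocount being 10 times below the median ratio, and counted from 1. Percentiles and shares were computed over all genes with Python 3.11.15, pandas 2.3.3 and numpy 2.4.6, and the counting was checked on simulated data. Neighbours, biotypes and chromosomes came from RefSeq on GRCm38.p6, matched by symbol. The neighbour was the protein-coding gene with the smallest gap in RefSeq positions, the shortest gene being taken at equal gaps. No limit of distance was set, and no coordinates are printed. Named were detected members of the Hox cluster, neural, islet and liver lists, the 10 highest and 10 lowest differences per comparison among members that reached the 75th percentile of 1 cell type or both, up to 4 members of each other list, and nearest protein-coding neighbours. The members and 11 lists were chosen with earlier results of these data known.

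Alternatives were pseudocounts 10 times smaller and larger, no genes set aside, a filter to genes above the median level, rank percentiles (25 points), a threshold of 1.5, identical members counted once, values shared by 10 or more genes set aside, and columns divided by their most frequent value. Members kept in all 3 columns, and X-linked members left out, were added after the data had been seen.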

Additional observations from a re-analysis of the deposited data

How the results depend on the processing

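All 3 comparisons had members on both sides of the threshold under every alternative. Of 369 members higher and 195 lower in hepatocytes against endoderm, a pseudocount 10 times larger gave 113 lower, only genes above the median level gave 209 higher and 110 lower, and rank percentiles gave 104 lower. Of 222 higher and 195 lower in beta cells against endoderm, the larger pseudocount gave 114 lower, the filter above the median 110 lower and rank percentiles 110 lower, while keeping members at the most frequent value gave 400 higher. Of 261 higher and 191 lower in hepatocytes against beta cells, keeping those members gave 292 lower, and the filter above the median gave 136 higher, fewer than its 156 lower. The filter tests fewer genes, and keeping set-aside members tests more; the cause of the other changes was not tested. Columns divided by their most frequent value moved the median difference of all genes to 0.40 in hepatocytes against endoderm, from -0.02, and to 0.39 in beta cells against endoderm, from 0.00. The share of counted members that were higher was then 67.3% and 55.9%, where it had been 65.4% and 53.2%, while the share of all counted genes was 73.6% and 71.1%, where it had been 48.5% and 47.6%. Under this scaling members leaned less to the higher side than all genes. No named difference changed sign and stayed counted, but of 101 counted among members of the Hox cluster, neural, islet and liver lists and the hosts, 37 were no longer counted by rank percentiles, 13 with the larger pseudocount, 9 with the threshold of 1.5 and 2 with the columns divided. With set-aside members kept, the median of the Hox cluster list was 0.30 in hepatocytes against endoderm and -0.05 in hepatocytes against beta cells, where it had been -0.24 and -1.85. No paired analysis was possible because the deposited table holds 1 pooled value per cell type, so no replicate could be left out either. Each ratio rests on an unknown number of reads, and none has a replicate error.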

Other observations

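Other groups of microRNA genes were counted in the same way. For hepatocytes against endoderm, 46.5% of microRNA genes compared were higher and 24.6% lower, where the table as a whole had 12.5% and 13.3%. For beta cells against endoderm, the microRNA shares were 31.9% and 28.1%, where the table as a whole had 13.6% and 15.0%. Counts close to the microRNA shares therefore do not set a list apart from microRNA genes in general. Let-7 genes, whose products accumulate as cells differentiate, were low in endoderm, with a median ratio of 0.0404. There 11 of 12 stood at or below the 5th percentile of all genes, as did 68.4% of all kept microRNA genes. In hepatocytes 4 of 9 kept let-7 genes were that low, against 42.1% of all kept microRNA genes. In beta cells it was 5 of 6, against 59.8%. Low ratios were thus common among microRNA genes in general. Hepatocytes against endoderm gave 5 let-7 genes higher and 0 lower of 9, among them Mirlet7a-2 with 191 in hepatocytes and 0.173 in endoderm. Of the 5 higher genes 2 were X-linked, namely Mirlet7f-2 and Mir98. Genes of the miR-17 and related clusters, which are active in dividing cells, gave 8 higher and 0 lower of 12 in hepatocytes against endoderm and 9 higher and 1 lower of 12 in beta cells against endoderm. The X-linked run from Mir363 to Mir106a supplied 6 of these 8 higher members, and 5 of the 9 and the 1 lower. The members outside it gave 2 higher and 0 lower of 6 and 4 higher and 0 lower of 6. Within the run, Mir19b-2 had 2.12 in hepatocytes, 195 in beta cells and 0.00727 in endoderm. Of the genes of pluripotent cells, 5 were higher and 0 lower of 7 in beta cells against endoderm, among them Mir302d with 239 and 0.208, and 4 were higher and 2 lower of 7 in hepatocytes against endoderm.

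Imprinted microRNA genes, most of them in the Dlk1-Dio3 region, gave 31 higher and 7 lower of 48 in hepatocytes against endoderm, with a median log2 difference of 2.26, and 15 higher and 13 lower of 42 in beta cells against endoderm, with a median of 0.02. A run of 30 neighbouring hairpins there, from Mir882 to Mir485, had median ratios of 1.16 in hepatocytes, 0.0206 in beta cells and 0.0270 in endoderm, and reached 144, 484 and 5.84. Mir483, within Igf2 and named after its values were seen, had 8.02, 0.0140 and 1.73 in hepatocytes, beta cells and endoderm, where Igf2 had 6.81, 3.25 and 3.64. Epithelial microRNA genes gave 10 higher and 1 lower of 11 in hepatocytes against endoderm, with Mir205 at 413 and 0.0203, and 4 higher and 3 lower of 10 in beta cells against endoderm. Muscle genes gave 3 higher and 2 lower of 7 and 3 higher and 4 lower of 8 in these comparisons, and Mir1a-1 had 10.1 in hepatocytes, 2.87 in beta cells and 0.0246 in endoderm. Blood and endothelial genes gave 4 higher and 4 lower of 9 and 3 higher and 4 lower of 7. All these counts share the endoderm column and carry no replicate error, and list members on 1 transcript are not independent.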
